A study of Homo sapiens with 9 samples.

Results

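The hypoxia response and glycolysis were described in hTERT_RPE1 cells through 45 genes taken by symbol from the 26475 genes of the count table. They cover the oxygen-sensing factors, their classical targets and the enzymes of glycolysis. The set was assembled with the knowledge that VEGFA and DDIT4 were higher in both conditions of the study than in its control, so the values of these 2 genes are given as a description, with no test. The other 43 genes carry no such selection by name, but they too were listed with earlier results of these data known.

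Cells sense oxygen through prolyl hydroxylases (EGLN genes), which mark the alpha subunits of the hypoxia-inducible factors (HIF1A, EPAS1) for degradation when oxygen is present. When oxygen falls the alpha subunits are spared, pair with an ARNT protein and bind promoters and enhancers at short hypoxia response elements, which raises genes of blood vessel growth, glucose uptake, glycolysis, acid export and mitophagy. Several of these targets also answer other signals, among them nutrient, endoplasmic reticulum and DNA damage stress, so their RNA alone does not report HIF activity. Retinal pigment epithelium is known as a source of VEGFA and for its transport of glucose to the photoreceptors.

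hTERT_RPE1 is an established human line of retinal pigment epithelial origin, immortalised with telomerase. Control cells carried the empty pLKO vector on fibronectin-coated glass, sh_PIP4K2B cells carried 1 of 3 lentiviral hairpins against the lipid kinase gene PIP4K2B (#1, #2 or #3, 1 library each) on the same glass, and Soft cells carried the empty vector on a fibronectin-coated gel of 2.3 kPa. RNA was taken after 24 h of growth on the surface, in 3 libraries per condition. The treatment label of Control and Soft names a control shRNA, where the titles name sh_Ctrl as the empty vector. No label says that libraries of a condition came from separate cultures, so p-values measure the spread between these libraries, which may be technical.

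Library totals lay between 19217346 and 24020799 counts, and 13784 genes had enough counts to be tested, 44 of the 45 among them. PIP4K2B was at 48.4, 40.9 and 36.6 CPM (counts scaled to a common library size, with TMM factors) with hairpins #1, #2 and #3, against 122 ± 2.26 CPM in Control and 122 ± 3.9 CPM in Soft (SD, n = 3). The median SD of log2 CPM between libraries was 0.36 in sh_PIP4K2B, where it includes differences between hairpins, against 0.08 in Control and 0.07 in Soft. Of 11 markers of retinal pigment epithelium 7 were too low to test, RPE65, TYR and LRAT among them, while MITF and OTX2 were detected. In Control, sh_PIP4K2B and Soft the mean of MITF was 36.5, 30.8 and 26.0 CPM and that of OTX2 10.9, 17.1 and 37.2 CPM. BEST1 (0.147, 0.396 and 0.719 CPM) and SERPINF1 (0.285, 0.387 and 0.593 CPM) were low but could also be tested. The sum of the 11 markers was 46.0 to 52.0 CPM in Control, 41.3 to 58.3 in sh_PIP4K2B and 62.7 to 68.1 in Soft. The summed CPM of 5 epithelial markers came mostly from KRT8 and KRT18. It was 1933 to 2086 in Control, 714 to 1129.7 in sh_PIP4K2B and 907 to 959 in Soft. KRT7, a further epithelial marker of the 5, had a mean of 12.7 CPM in Control, 7.99 in sh_PIP4K2B and 15.9 in Soft. The sum of 5 fibroblast markers was 133 to 143 CPM in Control, 181 to 401 in sh_PIP4K2B and 302 to 320.2 in Soft. Most of it was COL1A1, with means of 130, 267 and 256 CPM in the same order. In sh_PIP4K2B the means of DCN and PDGFRA were also above Control. Those of COL3A1 (0.526 against 0.553 CPM) and LUM (0.0973 against 0.106 CPM) were not. In Soft all 5 fibroblast markers had means above Control. EPCAM and CDH1 were at or near 0 throughout, 4 leukocyte markers summed to at most 0.939 CPM in any library. The sum of 4 endothelial markers was 1.01 to 1.97 CPM in Control, 0.674 to 1.24 in sh_PIP4K2B and 5.19 to 6.09 in Soft. They did not move together. In Soft PECAM1 had a mean of 4.79 CPM against 0.103 in Control, and VWF 0.566 against 0.356. TEK was lower in Soft, at 0.275 CPM against 1.03 in Control, and CDH5 was at 0 in both. The part of these marker differences in the results below was not tested.

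VEGFA and DDIT4 were highest in Soft and intermediate in sh_PIP4K2B. VEGFA, the main growth factor for blood vessels (chromosome 6, 43770184 to 43786487, plus strand), stood at 122, 126 and 121 CPM in the Control libraries, at 175, 229 and 239.8 CPM with hairpins #1, #2 and #3, and at 975, 1098 and 1044 CPM in Soft. The 3 conditions did not overlap, and the means were 1.74-fold (sh_PIP4K2B) and 8.43-fold (Soft) that of Control. DDIT4, an inhibitor of mTORC1 signalling induced by hypoxia and by several other stresses (chromosome 10, 72273919 to 72276036, plus strand), measured 12.7, 11.2 and 11.7 CPM in Control. It reached 48.5, 52.5 and 41.0 CPM with the hairpins and 110.2, 106 and 106 CPM in Soft, so that again no library of one condition overlapped another. The mean ratio to Control was 3.99 in sh_PIP4K2B and 9.05 in Soft. In sh_PIP4K2B the ratio of DDIT4 was thus larger than that of VEGFA, and in Soft the ratios were of similar size.

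**Figure D1:**
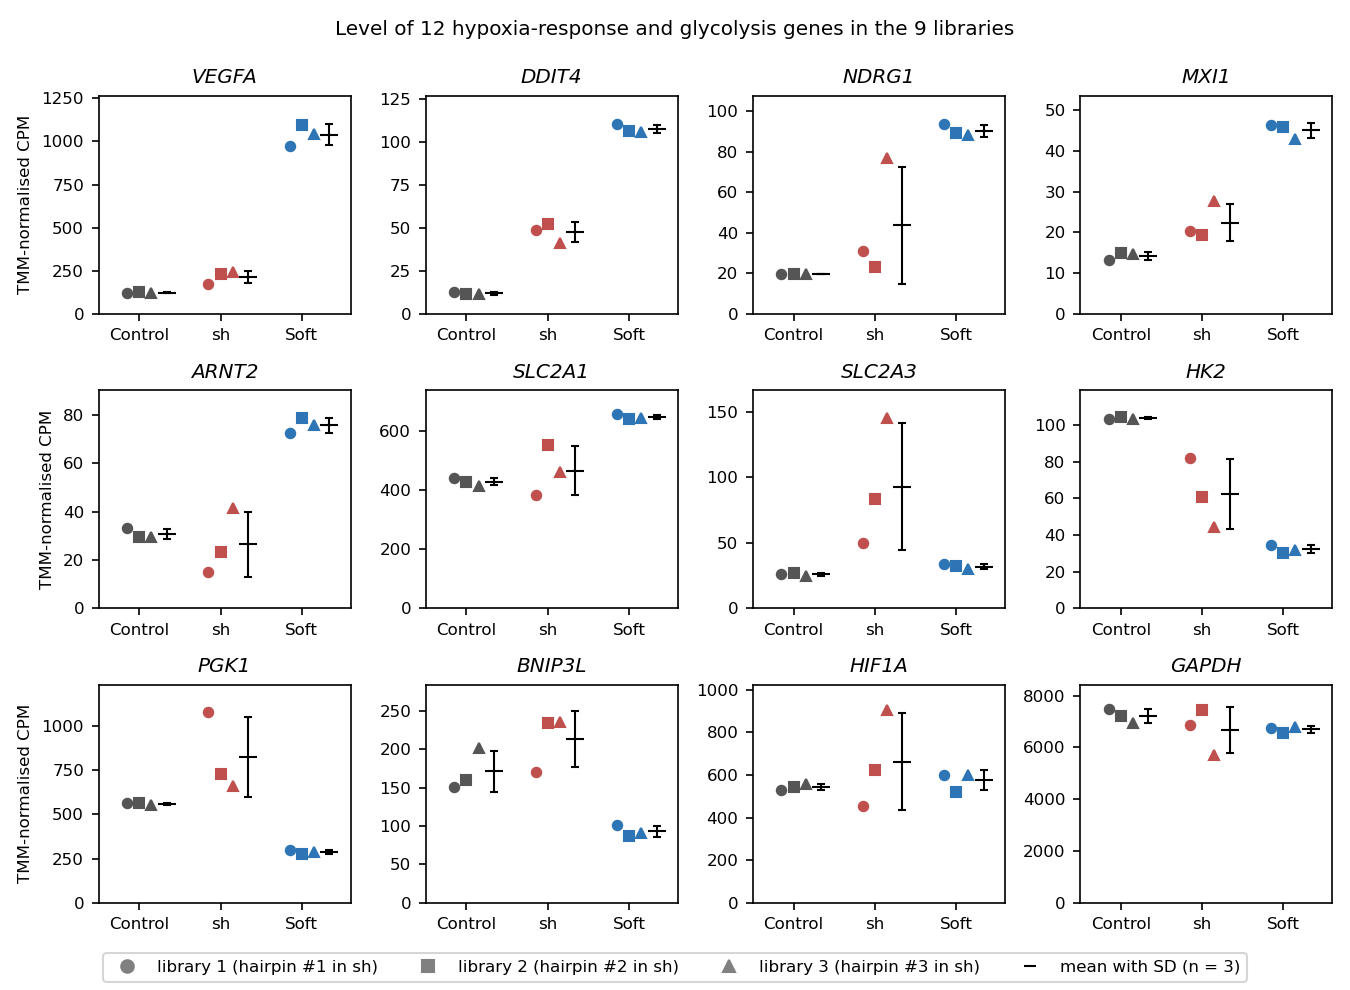
TMM-normalised CPM of 12 genes in each library (symbols; the symbol shape is the library number, which in sh is the hairpin), with the mean and SD of each condition (black; n = 3) on axes that start at 0. VEGFA and DDIT4 separate the 3 conditions without overlap, NDRG1 and MXI1 are highest in Soft, SLC2A3 is highest with the hairpins, and HK2 and PGK1 are lowest in Soft.

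The promoter sequences of some of these genes show where ACGTG, a form of the HIF recognition core, lies. RefSeq windows (GRCh38.p14), from 250 bases before to 50 bases after a start site, were found for 40 of the 45 genes; ARNT2, BNIP3L, NDRG1, SLC2A3 and VEGFA had none. The letters ACGTG, a form of the core of the hypoxia response element and called the core here, were searched on both strands. A palindromic CACGTG (the E-box bound by MYC, MAX and MXI1 family proteins) contains this core on both. The other form, GCGTG, was neither searched nor marked. Of the 27 genes with a single window 15 (55.6%) held the core, compared with 1997 of the 7292 tested genes with a single window (27.4%). The 45 genes were listed around HIF and its classical targets, so this share describes the choice of genes and not these samples. Of all 35116 RefSeq windows 21.4% held it. Windows are printed for DDIT4 (chr10:72273674-72273973, plus strand, core 125 bases upstream of the start), HK2 (chr2:74833877-74834176, plus strand, cores 229 and 48 bases upstream), PGK1 (chrX:78103998-78104297, plus strand, cores 202 and 183 bases upstream and 28 bases downstream) and MXI1 (chr10:110209981-110210280, plus strand, core 113 bases upstream). They were chosen because DDIT4 was higher in both conditions, MXI1 and HK2 had large changes of opposite sign in Soft, and PGK1 lay on opposite sides of Control in the 2 conditions. Each printed window holds the core, so these windows do not show how often it occurs. The MXI1 window is that of an alternative start, and the window at the start of its canonical transcript does not hold these letters. CA12 and PFKFB4, also higher in Soft and not printed, hold no ACGTG in their windows. Both of those windows hold the unsearched GCGTG or its reverse complement. INSIG2, higher in Soft than in sh_PIP4K2B, has ACGTG 95 bases upstream. Capitals mark ACGTG or its reverse complement CACGT.
DDIT4: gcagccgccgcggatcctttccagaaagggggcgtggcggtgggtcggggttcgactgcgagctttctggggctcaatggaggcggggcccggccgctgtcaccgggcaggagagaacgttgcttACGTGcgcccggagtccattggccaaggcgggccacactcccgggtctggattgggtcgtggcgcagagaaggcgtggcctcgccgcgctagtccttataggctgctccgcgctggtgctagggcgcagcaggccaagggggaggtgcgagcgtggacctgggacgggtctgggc
HK2: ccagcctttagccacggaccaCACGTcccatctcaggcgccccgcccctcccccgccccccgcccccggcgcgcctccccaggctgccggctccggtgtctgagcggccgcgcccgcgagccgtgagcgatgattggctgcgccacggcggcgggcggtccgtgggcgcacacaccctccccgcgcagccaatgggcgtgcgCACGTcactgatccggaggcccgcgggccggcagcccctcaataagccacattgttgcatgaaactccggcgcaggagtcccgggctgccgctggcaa
PGK1: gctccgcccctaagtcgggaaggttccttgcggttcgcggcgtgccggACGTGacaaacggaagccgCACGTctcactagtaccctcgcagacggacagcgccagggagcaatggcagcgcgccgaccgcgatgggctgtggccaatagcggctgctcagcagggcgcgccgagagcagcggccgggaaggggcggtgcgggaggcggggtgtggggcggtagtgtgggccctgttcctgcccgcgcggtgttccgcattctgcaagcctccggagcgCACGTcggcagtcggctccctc
MXI1: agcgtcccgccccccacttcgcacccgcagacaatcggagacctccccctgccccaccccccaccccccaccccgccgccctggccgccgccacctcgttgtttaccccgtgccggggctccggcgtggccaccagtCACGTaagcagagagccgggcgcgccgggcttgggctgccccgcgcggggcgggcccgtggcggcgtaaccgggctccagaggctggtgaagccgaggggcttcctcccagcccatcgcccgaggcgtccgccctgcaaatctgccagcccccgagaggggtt

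Outside VEGFA and DDIT4, the genes did not move as a block in either condition. In sh_PIP4K2B 1 of the 42 genes tested, SLC2A3, passed an adjusted p below 0.01 and was higher (quasi-likelihood F test of edgeR, p-values adjusted over all 13784 genes by the Benjamini-Hochberg method). Over all genes tested 5.54% passed in that comparison, 2.76% higher and 2.77% lower. In Soft 11 of the 42 passed, 6 higher (ARNT2, CA12, MXI1, NDRG1, PFKFB4, SLC2A1) and 5 lower (ALDOA, BNIP3L, HK2, PFKP, PGK1), against 30.6% of all genes, 15.8% higher and 14.8% lower. Compared directly, 9 of the 42 differed between Soft and sh_PIP4K2B, 4 higher in Soft (ARNT2, CA12, INSIG2, MXI1) and 5 lower (BNIP3, BNIP3L, HK2, PGK1, SLC2A3), against 30.0% of all genes, 14.5% higher and 15.5% lower. All of these comparisons share libraries, and the members' counts are set beside the shares of all genes without a test.

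The number that passed in sh_PIP4K2B differed between tests. DESeq2 called 9 of the 42 genes there (SLC2A3, BHLHE40 and MXI1 higher; INSIG2, HK2, GPI, PFKP, ALDOA and LDHA lower), and 15% of all genes. An unadjusted p below 0.05 in edgeR was found for 15 of the 42, and for 33.2% of all genes. A fit of the 6 libraries of sh_PIP4K2B and Control alone called 0 in edgeR. The main fit shares its spread over all 9 libraries, so values for Soft against Control below are set against a spread that includes the hairpins. A fit of Soft and Control alone called 30 of the 42 in Soft, and 9609 of all 13784 genes. Leaving out hairpin #1, #2 or #3 raised the calls in sh_PIP4K2B to 8, 9 and 6 of the 42. Over all genes they rose from 763 to 1672, 2020 and 1782. In Soft the same fits called 18, 14 and 17 of the 42, and 6349, 5147 and 5798 of all genes against 4217. Calls below that a gene gained without a hairpin stand beside these rises over all genes. The median log2 ratio to Control (the fitted fold change on the log2 scale) of the 42 genes was 0.05 in sh_PIP4K2B, with 21 below 0, and -0.10 in Soft, with 24 below 0. The same medians over all genes tested were 0.05 and 0.01, with 45.4% and 49.3% of genes below 0. Scaling by library size alone moved the all-gene medians to 0.14 and 0.12 and those of the 42 genes to 0.13 and 0.00. In 17 of the 42 genes the sh_PIP4K2B libraries did not overlap those of Control, 8 lying above and 9 below, where 34.1% of all genes had no overlap. In Soft this held for 32 of the 42, 13 above and 19 below, where 79.4% of all genes had no overlap.

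**Figure D2:**
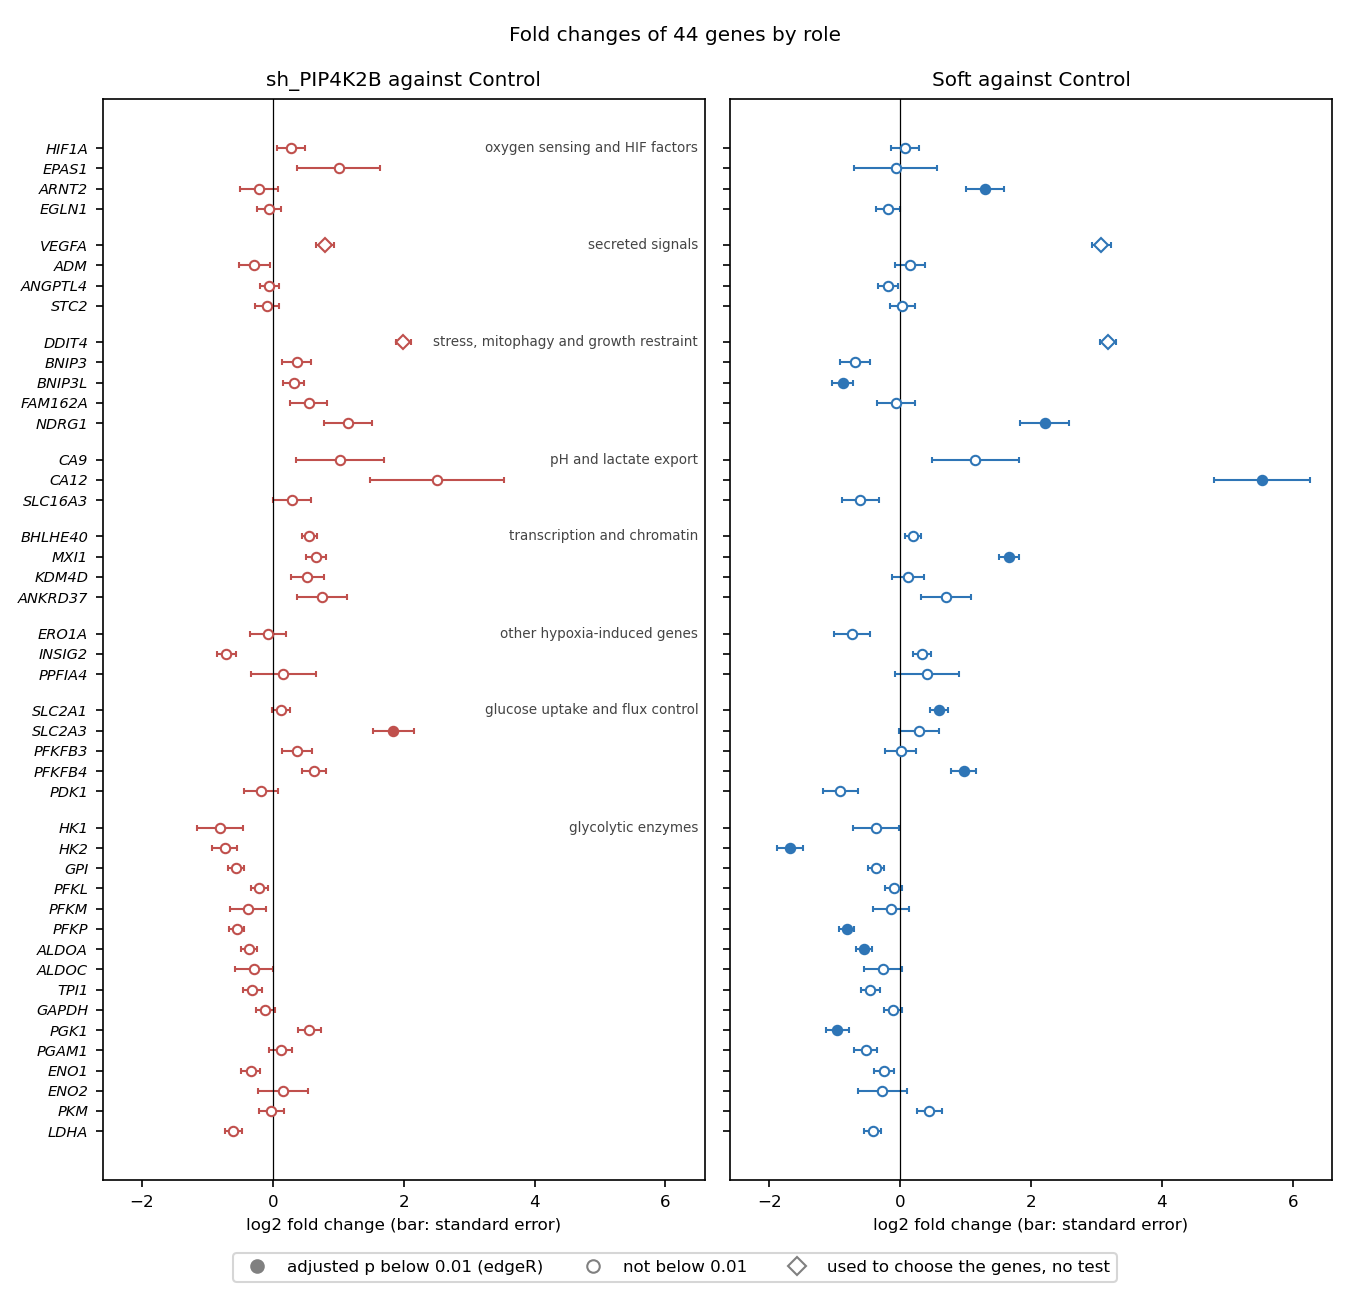
Log2 fold changes against Control for 44 genes grouped by role, with bars of 1 standard error, in sh_PIP4K2B (left) and Soft (right). Filled points passed an adjusted p below 0.01 (edgeR), and diamonds mark VEGFA and DDIT4, which were used to choose the genes and carry no test. SLC2A3 is the filled point in sh_PIP4K2B, and 11 points are filled in Soft, 6 above 0 and 5 below.

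Among the oxygen-sensing genes ARNT2 was the one that passed a test. HIF1A, the alpha subunit of HIF-1 (chromosome 14, 61695513 to 61748259, plus strand), was at 528, 543 and 558 CPM in Control, at 456, 621 and 906 CPM with hairpins #1, #2 and #3, and at 601, 520.2 and 602 CPM in Soft. Both conditions overlapped Control, with log2 ratios of 0.28 for sh_PIP4K2B (SE 0.22, edgeR adjusted p = 0.39) and 0.08 for Soft (SE 0.22, edgeR adjusted p = 0.78). EPAS1, the alpha subunit of HIF-2 (chromosome 2, 46293667 to 46386697, plus strand), was nearly level in Control (56.8, 56.3 and 54.3 CPM) and Soft (52.9, 54.9 and 51.5 CPM). The hairpin libraries of EPAS1 split into 41.5 and 35.4 CPM with #1 and #2 and 259 CPM with #3. Its log2 ratio in sh_PIP4K2B was 1.00 (SE 0.63, adjusted p = 0.30, edgeR) with all hairpins and -0.54 without hairpin #3, where it passed (adjusted p = 0.0048, edgeR). HIF activity is set largely through the stability of these proteins, which RNA does not measure.

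ARNT2 encodes a partner of the alpha subunits (chromosome 15, 80404350 to 80597933, plus strand). It stood at 33.3, 29.4 and 29.5 CPM in Control, at 15, 23.3 and 41.3 CPM with hairpins #1, #2 and #3, and at 72.6, 78.6 and 75.9 CPM in Soft. All Soft libraries lay above every other library, and the log2 ratio was 1.30 against Control (SE 0.29, adjusted p = 0.0055, edgeR) and 1.51 against sh_PIP4K2B (SE 0.29, adjusted p = 0.0027, edgeR). Without any single library of Control or Soft (replicates 1, 2 and 3 of each) the first value stayed between 1.27 and 1.36 but its adjusted p was 0.017 to 0.026 (edgeR). Without hairpin #2, Soft 2 or Soft 3 the second had an adjusted p of 0.011 (edgeR). EGLN1, the main prolyl hydroxylase (chromosome 1, 231363751 to 231422287, minus strand), was at 44.7, 48.1 and 52.5 CPM in Control, at 52.6, 33.8 and 53 CPM with the hairpins and at 47.4, 37.2 and 43 CPM in Soft. These groups overlap (adjusted p = 0.85 in sh_PIP4K2B and 0.42 in Soft, edgeR), and 68.8% of the 75-base stretches of its transcript also occur in another annotated gene at the same place. EGLN3, a prolyl hydroxylase that is itself a HIF target, had 0 counts in 7 of the 9 libraries and 1 count each in hairpin #2 and Soft 2, below the floor of 3 counts (0.131 to 0.148 CPM), and was not tested.

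The other secreted factors stayed near Control. ADM (adrenomedullin, a vasodilator peptide), ANGPTL4 (an inhibitor of lipoprotein lipase) and STC2 (a stanniocalcin glycoprotein) had log2 ratios of -0.28, -0.05 and -0.09 with PIP4K2B silenced, against 0.15, -0.18 and 0.03 in Soft, and none passed (adjusted p from 0.35 to 0.90, edgeR). An unadjusted p below 0.05 was reached by 0 of these 3 in either comparison, and DESeq2 called 0, where 33.2% and 54.3% of all genes had such a p and DESeq2 called 15% and 39.5% in sh_PIP4K2B and Soft. STC2 was abundant, at 1308 ± 5.28 CPM in Control, 1228 ± 302 in sh_PIP4K2B and 1339 ± 178 in Soft (SD, n = 3). ADM was at 51.9 CPM with hairpin #1 and at 24.8 and 28.7 CPM with #2 and #3, on either side of the 42.8 ± 1.38 CPM of Control. Without hairpin #1 its log2 ratio in sh_PIP4K2B was -0.68 and passed (adjusted p = 0.0016, edgeR).

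Genes of stress, mitophagy and growth restraint went opposite ways in Soft. NDRG1, a hypoxia- and stress-induced gene linked to growth arrest and metastasis suppression (chromosome 8, 133237175 to 133302022, minus strand), was at 19.6, 19.7 and 19.5 CPM in Control and at 93.7, 89.0 and 88.3 CPM in Soft. With hairpins #1, #2 and #3 it was at 31.2, 22.9 and 76.6 CPM, all above Control but with the third far above the others. NDRG1 rose in Soft (log2 ratio 2.21, SE 0.37, adjusted p = 0.0013, edgeR) and had 1.15 in sh_PIP4K2B (SE 0.37, adjusted p = 0.058, edgeR). An overlapping annotated gene holds 23.0% of the 75-base stretches of NDRG1. BNIP3L, a receptor for mitophagy (chromosome 8, 26383054 to 26505636, plus strand), was lower in Soft, at 101, 87.3 and 91.4 CPM against 152, 161 and 202 CPM in Control. The hairpin libraries held 171, 234 and 235 CPM, so that Soft lay below all others. Its log2 ratio was -0.88 for Soft against Control (SE 0.16, edgeR adjusted p = 0.0019) and -1.19 for Soft against sh_PIP4K2B (SE 0.16, adjusted p = 0.00039, edgeR). Without Soft 2 or Soft 3 the first was -0.86 to -0.83 with an adjusted p of 0.011 to 0.012 (edgeR).

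BNIP3, the related mitophagy receptor (chromosome 10, 131967684 to 131981967, minus strand), was at 89.2, 87.1 and 96.2 CPM in Control, 168, 94.6 and 87.5 CPM with hairpins #1, #2 and #3, and 62.5, 48.7 and 57.8 CPM in Soft. Soft lay below both other conditions, and the difference passed against sh_PIP4K2B (log2 ratio -1.05, SE 0.23, adjusted p = 0.0050, edgeR) but not against Control (-0.69, SE 0.23, adjusted p = 0.033, edgeR), where it passed at -0.70 without hairpin #1 (adjusted p = 0.00044, edgeR). Leaving out any single library of Control or Soft (1, 2 or 3) took the former to an adjusted p of 0.010 to 0.026 (edgeR), with values from -1.14 to -0.96, none below 0.01. Of its 75-base stretches 20.7% recur in other annotated genes. FAM162A, a mitochondrial protein induced by hypoxia, was at 49.4, 31.4 and 18.2 CPM with the hairpins against 22.6 ± 2.00 CPM in Control and 21.6 ± 1.67 CPM in Soft (SD, n = 3), and did not pass against Control (adjusted p = 0.22 and 0.88, edgeR). None of these 4 genes passed in sh_PIP4K2B with edgeR or DESeq2, and 1 had an unadjusted p below 0.05 in edgeR.

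The genes of pH control and lactate export were low or uneven. CA12, a membrane carbonic anhydrase (chromosome 15, 63321378 to 63381846, minus strand), had 0, 1 and 0 counts in the Control libraries, 1, 2 and 4 with the hairpins and 27, 14 and 21 in Soft. The summed counts of 62 and 1 gave a ratio of 63.8 between Soft and Control, with an exact 95% interval of 11.0 to 2558 that covers counting error only. CA12 passed in Soft (adjusted p = 0.00034, edgeR) and in Soft against sh_PIP4K2B (adjusted p = 0.0018, edgeR), at a level of 0.946 ± 0.282 CPM in Soft (SD, n = 3). CA9, the other membrane carbonic anhydrase of hypoxia, was at 7.32 CPM with hairpin #1, 1.25 and 0.939 CPM with #2 and #3, 1.56 ± 0.339 CPM in Control and 3.47 ± 0.461 CPM in Soft (SD, n = 3). The log2 ratio of 1.15 for CA9 in Soft did not pass (SE 0.66, adjusted p = 0.18, edgeR), and without hairpin #1 it was 1.14 and passed (adjusted p = 0.0022, edgeR). SLC16A3, the exporter of lactate from glycolytic cells, showed the same split between hairpins, with 1042 CPM for #1, 443 for #2 and 472 for #3 against 533 ± 33.4 CPM in Control. In Soft it was at 350.3 ± 17.0 CPM (SD, n = 3; a log2 change of -0.61, SE 0.29, adjusted p = 0.11, edgeR), and without hairpin #1 this passed at -0.62 (adjusted p = 0.00021, edgeR).

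MXI1 was the clearest of the transcription and chromatin genes. This antagonist of MYC, a HIF target that competes for MAX (chromosome 10, 110207605 to 110287365, plus strand), was at 13.2, 14.8 and 14.6 CPM in Control, 20.3, 19.3 and 27.7 CPM with hairpins #1, #2 and #3, and 46.5, 45.9 and 42.9 CPM in Soft. The conditions did not overlap, in the order Control, sh_PIP4K2B, Soft. It rose in Soft (log2 ratio 1.67, SE 0.15, adjusted p = 4.5e-05, edgeR) and was higher there than in sh_PIP4K2B (1.01, SE 0.15, adjusted p = 0.00056, edgeR), and both passed under each of the 16 alternatives with an edgeR or DESeq2 fit at 0.01. In sh_PIP4K2B it had 0.66 (SE 0.15, adjusted p = 0.017, edgeR) and passed without hairpin #1, #2 or #3, at 0.48 to 0.76 (adjusted p = 0.0062 to 0.0093, edgeR). BHLHE40, a circadian repressor that hypoxia also induces, was at 101 ± 15.5 CPM in sh_PIP4K2B against 68.5 ± 2.73 CPM in Control (SD, n = 3; a log2 change of 0.56, SE 0.12, adjusted p = 0.015, edgeR) and passed without hairpin #3 at 0.67 (adjusted p = 0.0013, edgeR). KDM4D, a histone demethylase, and ANKRD37, an ankyrin repeat protein, were below 6 CPM in every library and did not pass (adjusted p from 0.16 to 0.72, edgeR).

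INSIG2, which retains the cholesterol sensor SCAP in the endoplasmic reticulum (chromosome 2, 118088452 to 118110997, plus strand), lay on opposite sides of Control. Its Control libraries were at 13.2, 14.7 and 17.2 CPM, all hairpin libraries lower at 8.93, 10.1 and 8.50 CPM, and all Soft libraries higher at 20.7, 18.0 and 18.2 CPM. Neither difference from Control was below the threshold (log2 ratio -0.71, SE 0.14, adjusted p = 0.010 in sh_PIP4K2B; 0.34, SE 0.14, adjusted p = 0.068 in Soft, edgeR). Without hairpin #2 the former passed at -0.78 (adjusted p = 0.0058, edgeR). The direct difference between Soft and sh_PIP4K2B was 1.05 (SE 0.14, adjusted p = 0.00037, edgeR) and held under all 16 alternatives at 0.01. ERO1A, an oxidase of disulfide bond formation, was at 155 CPM with hairpin #3 but at 71.5 and 72.2 CPM with #1 and #2. It was lower in every Soft library (62.6 ± 2.42 CPM) than in Control (105 ± 15 CPM; SD, n = 3; a log2 change of -0.74, adjusted p = 0.050, edgeR), and without hairpin #3 this passed at -0.75 (adjusted p = 0.00052, edgeR). PPFIA4, a liprin scaffold protein, was at 6.40, 1.16 and 2.52 CPM with the hairpins and between 2.75 and 4.88 CPM elsewhere.

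Of the glucose transporters SLC2A1 rose in Soft and SLC2A3 in sh_PIP4K2B. SLC2A1, which encodes the basal transporter GLUT1 (chromosome 1, 42925353 to 42958893, minus strand), was at 428 ± 12.3 CPM in Control, 466 ± 83.4 in sh_PIP4K2B and 648 ± 8.11 in Soft (SD, n = 3). It rose in Soft (log2 ratio 0.60, SE 0.14, adjusted p = 0.0062, edgeR), although without any single library of Control or Soft (1, 2 or 3) the adjusted p was 0.023 to 0.031 (edgeR) at values of 0.58 to 0.62. SLC2A3, which encodes the high-affinity transporter GLUT3 (chromosome 12, 7919230 to 8019007, minus strand), was at 26.1, 26.6 and 24.9 CPM in Control, 50.002, 83.0 and 145 CPM with hairpins #1, #2 and #3, and 33.5, 32.0 and 29.6 CPM in Soft. Every hairpin library exceeded every other library, at 193% to 561% of the Control mean. The log2 ratio was 1.84 in sh_PIP4K2B (SE 0.31, adjusted p = 0.0055, edgeR), 0.29 in Soft (SE 0.31, edgeR adjusted p = 0.46) and -1.55 for Soft against sh_PIP4K2B (SE 0.31, adjusted p = 0.0032, edgeR).

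The rise of SLC2A3 passed in 8 of 16 alternatives. It passed without hairpin #1, #2 or #3, and was 1.36 without #3 and 2.14 without #1. Without any single library of Control or Soft (1, 2 or 3) it was 1.81 to 1.86 with an adjusted p of 0.014 to 0.033 (edgeR). Its difference between Soft and sh_PIP4K2B was -1.59 to -1.50 without Soft 1, 2 or 3 (adjusted p = 0.014 to 0.017, edgeR). Of its 75-base stretches 13.3% recur in other annotated genes. Per kb of transcript SLC2A1 remained the main transporter RNA everywhere, and the share of SLC2A3 in the sum of both was 5.07% ± 0.114 in Control, 10.3%, 11.7% and 21.7% with hairpins #1, #2 and #3, and 4.15% ± 0.216 in Soft (SD, n = 3).

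Regulators of glycolytic flux differed one by one. PFKFB4, which makes and degrades fructose 2,6-bisphosphate, the activator of phosphofructokinase (chromosome 3, 48517684 to 48562015, minus strand), rose in Soft from 17.2 ± 0.885 to 33.6 ± 0.938 CPM (SD, n = 3; a log2 change of 0.97, SE 0.18, adjusted p = 0.0023, edgeR). Without Control 2, Control 3 or Soft 2 the value was 0.93 to 0.97 with an adjusted p of 0.011 to 0.014 (edgeR). In sh_PIP4K2B PFKFB4 was at 27.3, 18.9 and 33.8 CPM, each above Control (log2 ratio 0.64, SE 0.18, adjusted p = 0.043, edgeR), and without hairpin #2 it passed at 0.83 (adjusted p = 0.0018, edgeR). The related PFKFB3, which favours the forward reaction, was at 42.98 ± 4.69 CPM in Soft against 42.8 ± 1.28 in Control (SD, n = 3), and at 79.6 CPM with hairpin #1 against 37.7 and 48.8 with #2 and #3. Per kb, PFKFB4 made up 33.96% ± 0.673 of the RNA of the pair in Control and 50.1% ± 3.43 in Soft (SD, n = 3). PDK1, a kinase that keeps pyruvate out of the mitochondrial cycle by inhibiting pyruvate dehydrogenase, was at 11.4 ± 2.08 CPM in Soft against 21.6 ± 1.37 in Control (SD, n = 3; a log2 change of -0.92, SE 0.27, adjusted p = 0.019, edgeR), and passed without hairpin #2 or #3 (-0.93 to -0.92, adjusted p = 0.0034 to 0.0043, edgeR).

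**Figure D3:**
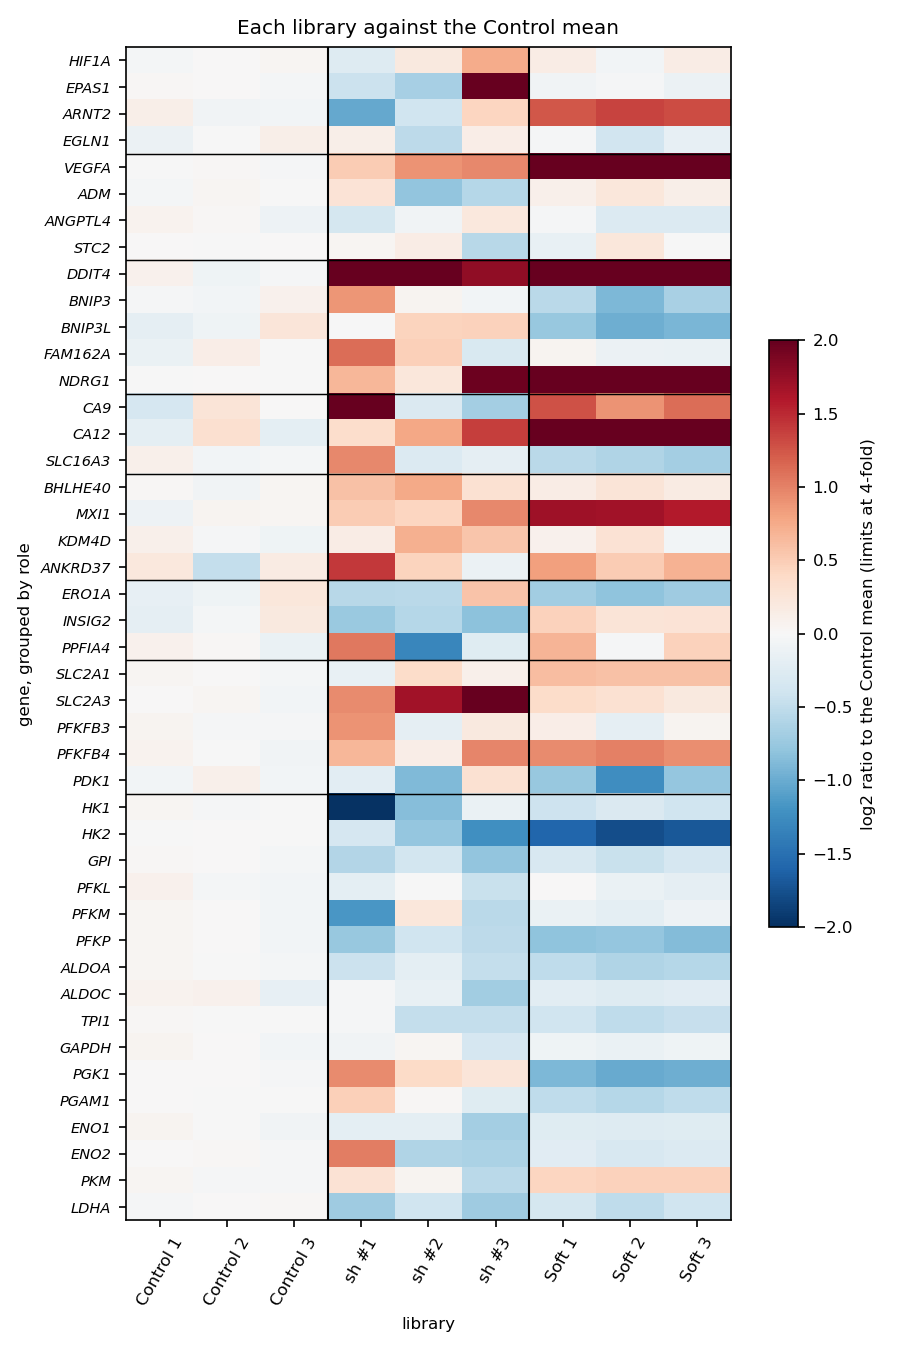
Log2 ratio of each library to the Control mean (0.1 CPM added) for 44 genes in rows, grouped by role, with the 9 libraries in columns and colours limited at 4-fold. Soft libraries resemble each other, while the hairpin libraries differ: hairpin #1 is high in BNIP3, FAM162A, CA9, SLC16A3, PGK1 and ENO2 and low in HK1, and hairpin #3 is high in EPAS1, NDRG1 and SLC2A3.

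Of the 16 glycolytic enzyme genes 4 passed in Soft, HK2, PFKP, ALDOA and PGK1, all lower, where 30.6% of all genes passed and 14.8% were lower. A value below 0 was found for 15 of 16 (13 of 16 when libraries were scaled by size alone), with a median log2 ratio of -0.37. In sh_PIP4K2B 0 of 16 passed in edgeR (5.54% of all genes), 8 had an unadjusted p below 0.05 (33.2% of all genes), and DESeq2 called 5, all lower (15% of all genes in either direction). In sh_PIP4K2B the median was -0.33, with 13 of 16 below 0, where 45.4% of all genes lay below 0. The summed CPM of the 16 genes was 20522 ± 500.3 in Control and 18801 ± 238 in Soft (SD, n = 3). With hairpins #1, #2 and #3 the sum was 20079.7, 19488 and 15157 CPM.

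HK2, the inducible hexokinase that traps glucose as its phosphate (chromosome 2, 74834127 to 74893359, plus strand), had the largest change of the enzymes in Soft. It was at 103, 104 and 103 CPM in Control, 82.0, 60.6 and 44.3 CPM with hairpins #1, #2 and #3, and 34.4, 30.3 and 32.0 CPM in Soft, with no overlap between conditions. It fell by 1.68 on the log2 scale in Soft (SE 0.19, adjusted p = 0.00015, edgeR) and was lower there than in sh_PIP4K2B (-0.95, SE 0.19, adjusted p = 0.0033, edgeR). Without Soft 1, 2 or 3 the latter was -1.0 to -0.91 (adjusted p = 0.012 to 0.018, edgeR). In sh_PIP4K2B HK2 had -0.73 (SE 0.19, adjusted p = 0.028, edgeR), and without hairpin #1 it passed at -0.98 (adjusted p = 0.0014, edgeR). HK1, the constitutive hexokinase, had 101, 221 and 365 CPM with hairpins #1, #2 and #3, below the 401 ± 7.99 CPM of Control, and 311 ± 14.3 CPM in Soft (SD, n = 3). Per kb, the share of HK2 among the hexokinases was 14.2% ± 0.285 in Control and 6.24% ± 0.608 in Soft (SD, n = 3), and 34.1%, 14.9% and 7.20% with hairpins #1, #2 and #3. GPI, which isomerises glucose phosphate, was below Control in all hairpin and Soft libraries (log2 ratios -0.57 and -0.36, adjusted p = 0.014 and 0.034, edgeR). Without hairpin #2 or #3 it passed in both comparisons, at -0.69 to -0.47 in sh_PIP4K2B (adjusted p = 0.0018 to 0.0088, edgeR) and -0.37 to -0.36 in Soft (adjusted p = 0.0057 to 0.0063, edgeR).

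**Figure D4:**
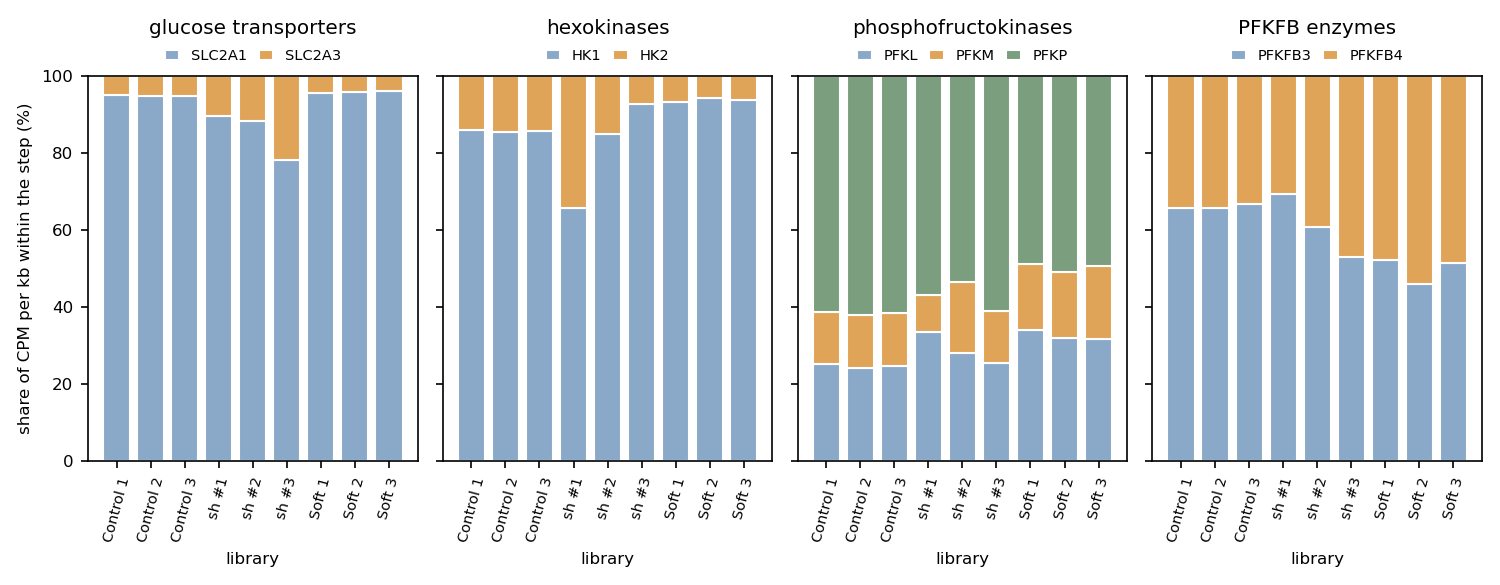
Share of each isozyme in the summed CPM per kb of its step (stacked bars, in percent) in the 9 libraries, for glucose transporters, hexokinases, phosphofructokinases and PFKFB enzymes. The share of SLC2A3 is larger with every hairpin than in Control, that of HK2 is smaller in Soft and larger with hairpin #1, and that of PFKP is smaller in Soft.

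Phosphofructokinase, the committed step, has 3 subunit genes that behaved differently in Soft. PFKP, the platelet-type subunit and the most abundant one per kb in Control (chromosome 10, 3066333 to 3137718, plus strand), fell from 368 ± 12.5 to 209 ± 6.11 CPM in Soft (SD, n = 3; a log2 change of -0.82, SE 0.11, adjusted p = 0.00045, edgeR). It had -0.55 in sh_PIP4K2B (SE 0.11, adjusted p = 0.013, edgeR), at 218, 279 and 257 CPM, and passed there without hairpin #1, #2 or #3 (-0.63 to -0.46, adjusted p = 0.0028 to 0.0083, edgeR). PFKL, the liver-type subunit, had -0.21 and -0.10 and PFKM, the muscle-type subunit, -0.38 and -0.14 in the 2 comparisons against Control (adjusted p from 0.29 to 0.70, edgeR), although PFKM passed in sh_PIP4K2B without hairpin #2 at -0.82 (adjusted p = 0.0089, edgeR). The share of PFKP per kb was 61.6% ± 0.362 in Control, 57.2% ± 3.82 in sh_PIP4K2B and 49.7% ± 1.13 in Soft (SD, n = 3). ALDOA, the main aldolase (chromosome 16, 30064164 to 30070457, plus strand), was at 1631 ± 41.3 CPM in Control and 1110.0 ± 32.9 CPM in Soft (SD, n = 3; a log2 change of -0.56, SE 0.12, adjusted p = 0.0043, edgeR). Without any single library of Control or Soft (1, 2 or 3) this was -0.58 to -0.54 with an adjusted p of 0.018 to 0.026 (edgeR), and an overlapping annotated gene holds 89.3% of its 75-base stretches. ALDOC, the brain-type aldolase, stayed below 0.75 CPM. TPI1, which interconverts the triose phosphates, had -0.46 in Soft (SE 0.14, adjusted p = 0.026, edgeR), with 16.5% of its stretches also in other genes, and without hairpin #1 it passed at -0.47 in Soft (adjusted p = 0.00037, edgeR) and at -0.48 in sh_PIP4K2B (adjusted p = 0.0027, edgeR).

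PGK1 lay on opposite sides of Control in the 2 conditions. This kinase, which makes the first ATP of glycolysis (chromosome X, 77910739 to 78129295, plus strand), was at 564, 562 and 550.2 CPM in Control, 1079.5, 731 and 660.1 CPM with hairpins #1, #2 and #3, and 300.2, 277 and 284 CPM in Soft. No libraries of different conditions overlapped. PGK1 fell in Soft (log2 ratio -0.96, SE 0.18, adjusted p = 0.0018, edgeR) and had 0.56 in sh_PIP4K2B (SE 0.17, adjusted p = 0.055, edgeR). The difference between Soft and sh_PIP4K2B was -1.52 (SE 0.18, adjusted p = 0.00019, edgeR). Without Soft 2 or Soft 3 the fall against Control was -0.95 to -0.93 with an adjusted p of 0.011 to 0.012 (edgeR), while the difference from sh_PIP4K2B passed under all 16 alternatives at 0.01. GAPDH, the dehydrogenase just before it in the pathway and a common reference gene (chromosome 12, 6534512 to 6538374, plus strand), was at 7467, 7207 and 6943 CPM in Control, 6868, 7435 and 5691 CPM with the hairpins and 6756, 6541 and 6783 CPM in Soft. Its log2 ratio was -0.11 in both comparisons (SE 0.14, adjusted p = 0.62 and 0.57, edgeR), and 0.00 in Soft when scaled by library size alone.

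In the fit of all 9 libraries the last steps did not pass in any comparison against Control. The spread of that fit includes the hairpins. The fit of Soft and Control alone called PKM higher and PGAM1, ENO1, ENO2 and LDHA lower in Soft, where 9609 of all 13784 genes were called. LDHA, which turns pyruvate into lactate (chromosome 11, 18394560 to 18408425, plus strand), was at 1612, 1639 and 1653 CPM in Control, 996, 1236 and 999 CPM with the hairpins and 1284, 1146 and 1241 CPM in Soft. Both conditions lay wholly below Control, at log2 ratios of -0.60 for sh_PIP4K2B (SE 0.13, edgeR adjusted p = 0.014) and -0.42 for Soft (SE 0.13, edgeR adjusted p = 0.023). Without hairpin #1 or #2 LDHA passed in sh_PIP4K2B (-0.71 to -0.55, adjusted p = 0.0010 to 0.0073, edgeR), and without hairpin #1, #2 or #3 it passed in Soft (-0.43 to -0.42, adjusted p = 0.0018 to 0.0092, edgeR). PKM, pyruvate kinase (chromosome 15, 72199029 to 72231819, minus strand), was the enzyme above Control in Soft, at 5016, 5157 and 5122 CPM against 3823, 3691 and 3693 CPM (log2 ratio 0.45, SE 0.19, adjusted p = 0.083, edgeR). With the hairpins it was at 4559, 3882 and 2584 CPM, on both sides of Control, and without hairpin #3 the value in Soft was 0.44 and passed (adjusted p = 0.0076, edgeR). ENO2, the neuronal enolase, was at 268 CPM with hairpin #1 and 86.9 and 85.2 CPM with #2 and #3 against 132 ± 2.29 CPM in Control (SD, n = 3). Its log2 ratio in sh_PIP4K2B turned from 0.16 (SE 0.38, adjusted p = 0.81, edgeR) to -0.62 without hairpin #1 (adjusted p = 0.00069, edgeR). ENO1, the main enolase, had -0.34 and -0.25 (adjusted p = 0.15 and 0.20, edgeR), and PGAM1, the mutase before it, 0.12 and -0.53 (adjusted p = 0.67 and 0.031, edgeR), with 50.1% of its 75-base stretches also in other genes. Without hairpin #1 or #3 PGAM1 passed in Soft at -0.54 (adjusted p = 0.00071 to 0.0058, edgeR).

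**Figure D5:**
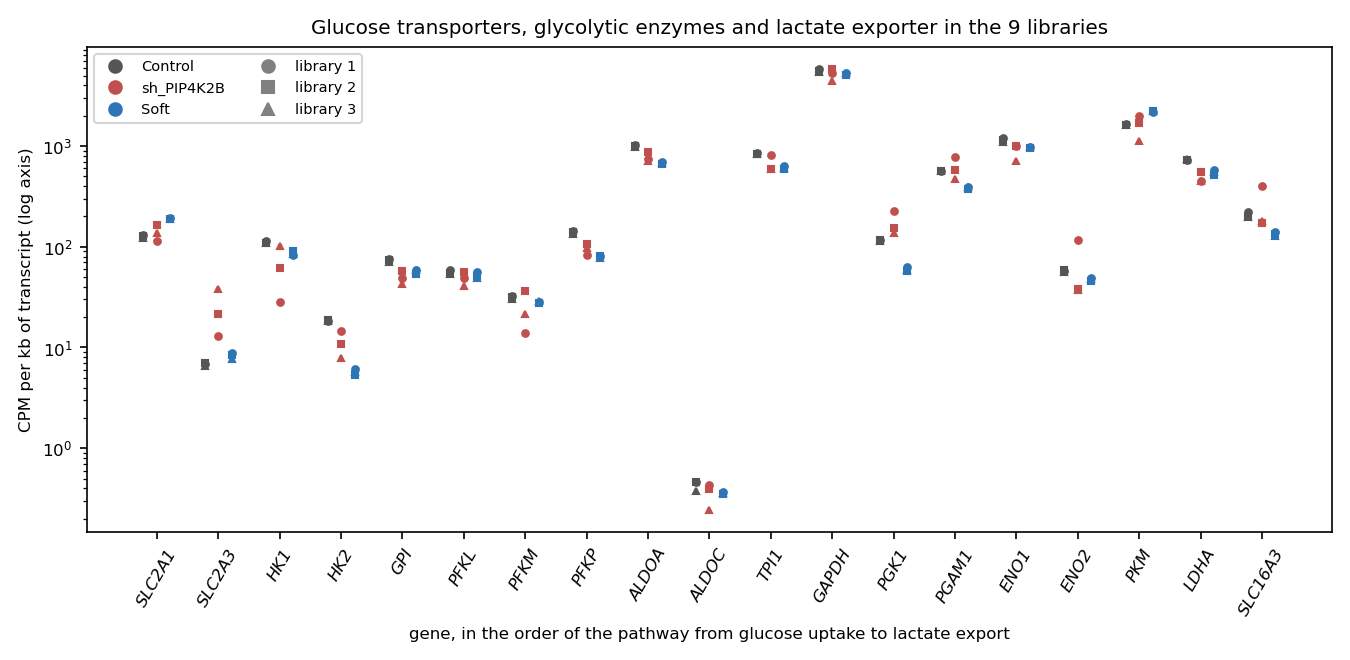
Levels per kb of canonical transcript (log axis) of the glucose transporters, glycolytic enzymes and lactate exporter SLC16A3, in pathway order, with 1 symbol per library coloured by condition. GAPDH is the most abundant at 5608 CPM per kb in the Control mean, followed by PKM at 1621 and ENO1 at 1152, while ALDOC is near 0.436, and the HK2 and PGK1 libraries of Soft lie below those of Control.

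The hairpins differed from each other more in these genes than libraries of the other conditions did. The ratio of the highest to the lowest library had a median of 1.77 over the 42 genes in sh_PIP4K2B, 1.07 in Control and 1.09 in Soft (0.1 CPM added), and over all genes tested it was 1.60, 1.11 and 1.1. It passed 2-fold for 17 of the 42 genes in sh_PIP4K2B and for 0 in Control and in Soft, and was largest for EPAS1, at 7.31. With hairpin #1 13 of the 42 genes were over 1.5-fold above the Control mean and 7 as far below, with hairpin #2 4 and 7, and with hairpin #3 7 and 8. As a share of the 42 genes this is 47.6%, 26.2% and 35.7%, where the same shares over all genes tested were 39.7%, 21.9% and 30.3%. In the Soft libraries it was 35.7% to 38.1% of the 42 genes against 41.9% to 42.6% of all genes. SLC2A3 was the gene past 1.5-fold above Control with all 3 hairpins. None of these shares was tested, and whether a hairpin's own off-target effects, culture or library bear on them cannot be told apart with 1 library per hairpin.

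Genes of the same pathways outside the 45 were listed by hand. Of 110 symbols 109 were matched in the count table, and 95 had enough counts to be tested. In sh_PIP4K2B 13 passed, 10 higher and 3 lower, in Soft 40, 21 higher and 19 lower, and between Soft and sh_PIP4K2B 37, 17 higher in Soft and 20 lower (edgeR). Over all genes 5.54%, 30.6% and 30.0% passed in these comparisons, and the same shares stand beside each list that follows. Scaled by library size alone, the 39 that passed in Soft were 25 higher and 14 lower. By the rule for naming, the highest in sh_PIP4K2B were EFNA1, an ephrin ligand (log2 ratio 2.32, SE 0.36, adjusted p = 0.0036, edgeR), and the sestrins SESN2 (2.24, SE 0.37, adjusted p = 0.0046, edgeR) and SESN1 (2.12, SE 0.26, adjusted p = 0.0014, edgeR), stress-induced inhibitors of mTORC1. The lowest were IGFBP3, a binder of insulin-like growth factors (-2.69, SE 0.23, adjusted p = 0.00050, edgeR), DDIT4L, the paralog of DDIT4 (-1.05, SE 0.17, adjusted p = 0.0046, edgeR), and GYS1, glycogen synthase (-0.80, SE 0.11, adjusted p = 0.0018, edgeR). EFNA1 was low, with means of 0.661, 3.31 and 12.3 CPM in Control, sh_PIP4K2B and Soft, as was DDIT4L (2.87, 1.39 and 13.7 CPM). In Soft the highest were EFNA1 (4.21, SE 0.35), KLHL24, an adaptor of ubiquitin ligases (2.62, SE 0.13), and PDK2, a pyruvate dehydrogenase kinase (2.38, SE 0.19), with adjusted p from 3.5e-06 to 3.2e-05 (edgeR). The lowest were EDN1, the vasoconstrictor endothelin (-4.15, SE 0.44, adjusted p = 0.00011, edgeR), and GPRC5A, an orphan receptor (-2.29, SE 0.42, adjusted p = 0.0018, edgeR). Of these calls IGFBP3 in sh_PIP4K2B, and EFNA1, KLHL24, PDK2 and EDN1 in Soft, passed without any single library. Without Control 1, 2 or 3 the other 5 in sh_PIP4K2B had adjusted p from 0.011 to 0.030 (edgeR), EFNA1 also lost its call without Soft 1 or 3 and SESN2 and DDIT4L without Soft 1, 2 or 3, and GPRC5A lost its call without Soft 2 or 3 (adjusted p = 0.010 to 0.011, edgeR).

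By list, 0 of 9 other HIF pathway genes passed in sh_PIP4K2B (edgeR and DESeq2, with 3 at an unadjusted p below 0.05 in edgeR) and 2 in Soft, 1 in each direction. ARNT was higher in Soft (0.67, SE 0.11, adjusted p = 0.001, edgeR) and passed without any single library. CUL2 was lower (-0.58, SE 0.10, adjusted p = 0.0016, edgeR) and lost its call without Control 3 or Soft 2 (adjusted p = 0.010 to 0.011, edgeR). ARNT and CUL2 were named after their values were seen. Of 38 other hypoxia-induced genes 3 were higher and 2 lower in sh_PIP4K2B, and 6 higher and 10 lower in Soft, EFNA1 against EDN1 for example. Of 32 other genes of glucose metabolism 4 were higher in sh_PIP4K2B, and 9 were higher and 7 lower in Soft. Around VEGFA, 6 other ligands and receptors were tested. PGF, placental growth factor, passed in sh_PIP4K2B (2.19, SE 0.43, adjusted p = 0.0098, edgeR), and VEGFB (0.88), NRP1 (0.85) and NRP2 (1.48), the neuropilin co-receptors, passed in Soft (adjusted p from 0.00034 to 0.0099, edgeR), all higher. These 4 were named after their values were seen. PGF was low, at a mean of 0.341 CPM in Control and 1.58 CPM in sh_PIP4K2B. VEGFB passed without any single library. PGF lost its call without any library except that of hairpin #2 (1.88 to 2.77, adjusted p = 0.013 to 0.054, edgeR), NRP1 without any library of Control or Soft (0.83 to 0.87, adjusted p = 0.028 to 0.037, edgeR) and NRP2 without any library of Control (1.47 to 1.5, adjusted p = 0.010 to 0.011, edgeR).

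Around DDIT4, 10 other genes upstream of mTORC1 were tested, and 2 were higher (SESN1, SESN2) and 1 lower (DDIT4L) in sh_PIP4K2B. In Soft DDIT4L was higher (2.25, SE 0.16, adjusted p = 1.3e-05, edgeR), the opposite of its fall with the hairpins, TSC2 was higher (0.58) and RHEB, the activator of mTORC1 that TSC2 restrains, lower (-0.44; adjusted p = 0.0058 and 0.0052, edgeR). TSC2 and RHEB were named after their values were seen, and neither passed without any 1 library of Control or Soft (adjusted p = 0.012 to 0.029, edgeR). DDIT4 is also induced by ATF4 and p53 in other settings, so short lists of their targets were counted beside it. Of 10 ATF4 targets 2 were higher in sh_PIP4K2B (ATF3, DDIT3) and 1 in Soft (CEBPB), named after their values were seen. ATF3 lost its call without any library except that of hairpin #2 (adjusted p = 0.011 to 0.049, edgeR). DDIT3 lost its call without any library of Control, and without Soft 1 or 3 (adjusted p = 0.011 to 0.032, edgeR). Of 10 p53 targets 4 were higher in sh_PIP4K2B, while in Soft 1 was higher and 5 lower, and 9 were lower in Soft than in sh_PIP4K2B. Over all genes 2.76% were higher in sh_PIP4K2B, 15.8% higher and 14.8% lower in Soft, and 15.5% lower in Soft than in sh_PIP4K2B. Of the 4 calls in sh_PIP4K2B, that of MDM2 was lost without Control 1 or 2 and that of RRM2B without Control 1, 2 or 3 (adjusted p = 0.011 to 0.023, edgeR). FAS lost its call in Soft (adjusted p = 0.010 to 0.012, edgeR), and PLK3 that between Soft and sh_PIP4K2B (adjusted p = 0.015 to 0.016, edgeR), without Soft 1, 2 or 3. These 4 were named after their values were seen. The part of either list in the values of VEGFA and DDIT4 was not tested. In bulk RNA, fewer cells that express a gene and less RNA per cell cannot be told apart for any value above.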

How the data were processed

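RNA of hTERT_RPE1 cells was sequenced in 9 libraries, 3 each of Control, sh_PIP4K2B and Soft. The authors deposited 1 table of estimated counts by gene symbol, made without scaling. Their notes list STAR and Salmon, and the counting settings are not given in the sources used here. Of the values 12.3% were not whole, and counts were rounded.

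Genes passing filterByExpr were fitted together over all 9 libraries with edgeR 4.0.16 (TMM scaling, quasi-likelihood F test; R 4.3.3, limma 3.58.1). P-values were Benjamini-Hochberg adjusted over 13784 genes, with a threshold of 0.01. Alternatives were DESeq2 1.42.0, other filters and scalings, other sample choices, a replicate block and leaving out each library. Fits were tested on simulated data drawn with the same spread in every condition, so the wider spread between hairpins was not covered. At these depths 3 counts equal 0.131 to 0.148 CPM, and intervals cover counting error only.

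The 45 genes, the gene lists and the naming rule were chosen with earlier results of these data known. Library values are given for VEGFA, DDIT4, HIF1A, EPAS1, EGLN1, EGLN3, GAPDH, PGK1, LDHA, PKM, each gene past the threshold in sh_PIP4K2B, and each past it with a log2 fold change of at least 1 in size in a comparison with Soft. Of other pathway genes with a mean of 50 counts or more, the 3 highest and 3 lowest called against Control are named, except 1 that is not reported here. Coordinates and transcript lengths are from GENCODE 44 (GRCh38), promoters from RefSeq (GRCh38.p14). Shared 75-base stretches were counted in annotated transcripts. Python 3.11.15, pandas 2.3.3, scipy 1.17.1 and matplotlib 3.10.9 were used.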

Additional observations from a re-analysis of the deposited data

Results flagged for a closer look

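In 5 of the 42 genes tested the log2 fold changes against Control had opposite signs in sh_PIP4K2B and Soft, and Soft differed from sh_PIP4K2B past the threshold (edgeR). ARNT2 was higher in Soft by 1.51 (adjusted p = 0.0027, edgeR) and INSIG2 by 1.05 (adjusted p = 0.00037, edgeR). PGK1 differed by -1.52 (adjusted p = 0.00019, edgeR), BNIP3L by -1.19 (adjusted p = 0.00039, edgeR) and BNIP3 by -1.05 (adjusted p = 0.0050, edgeR), all lower in Soft. The 2 conditions share the Control libraries. The share of all genes that meet the same rule was not counted, so nothing is read from this number. None of these 5 passed in sh_PIP4K2B against Control. There ARNT2, BNIP3 and BNIP3L overlapped Control (adjusted p = 0.65, 0.30 and 0.20, edgeR), so the sign of their change is uncertain.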

How the results depend on the processing

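The count of the 42 genes called in sh_PIP4K2B was 1. It was 2 with at least 10 counts required in every library or upper quartile scaling, 3 with library size scaling, 9 with DESeq2 or a threshold of 0.05, 0 in a fit of the 2 conditions compared alone, and 0 to 9 without single libraries. In Soft it was 11, with 30 in a fit of the 2 conditions alone, 18 at 0.05 and 5 to 18 without single libraries. Between Soft and sh_PIP4K2B it was 9, with 5 in the 2 conditions alone, 15 at 0.05 and 5 to 16 without single libraries. Other pathway genes numbered 13 in sh_PIP4K2B, with 24 in DESeq2, 24 at 0.05, 0 in the 2 conditions alone and 2 to 30 without single libraries. In Soft they numbered 40 (79 in the 2 conditions alone, 22 to 58 without single libraries), and between Soft and sh_PIP4K2B 37 (18 and 21 to 45). The fit of 2 conditions alone estimates the spread from fewer libraries and, for Soft and Control, without the hairpins. Without single libraries EPAS1 ranged from -0.54 (without hairpin #3) to 1.43 in sh_PIP4K2B and from -1.50 to 0.46 (without hairpin #3) in Soft against sh_PIP4K2B, and ENO2 from -0.62 (without hairpin #1) to 0.43 and from -0.71 to 0.33 (without hairpin #1). Library size scaling moved the higher share of all calls in Soft from 51.7% to 62.9%. The totals over all genes moved too. In sh_PIP4K2B 763 were called (2066 with DESeq2, 5 in the 2 conditions alone, 61 to 2020 without single libraries). The total there was 810 with at least 10 counts in every library, 782 with upper quartile scaling and 667 with library size scaling. In Soft 4217 were called (9609 in the 2 conditions alone, 2512 to 6349 without single libraries). Between Soft and sh_PIP4K2B it was 4135 (2160 and 2375 to 5348). Totals at 0.05 are not reported here.

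The titles number the empty vector alike in Control and Soft libraries of the same number. Libraries of the same number did not deviate together (r from -0.115 to 0.0394), so the numbers were not taken as pairs. With a replicate block 0 of the 42 genes were called in sh_PIP4K2B, 9 in Soft and 9 between them, and of other pathway genes 5, 31 and 32. Over all genes the replicate block gave 295 calls in sh_PIP4K2B, 3536 in Soft and 3366 between them.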
